A study of Mus musculus with 20 samples.

Results

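The genes described here are 5 guanylate-binding proteins (Gbp2, Gbp3, Gbp5, Gbp7 and Gbp9), 2 immunity-related GTPases (Irgm1 and Igtp; Igtp is also called Irgm3) and the transcription factor Irf1. They were taken by symbol from the table of raw counts, which held all 8 of them among 23329 symbols, and all 8 passed the filter on low counts that left 15363 genes. Each was followed as CPM (counts per library total, scaled to a common depth and corrected by TMM, the trimmed mean of M values, for library composition) in macrophages and microglia of mouse gliomas, in normal microglia and in blood monocytes.

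Interferon-gamma, a cytokine made mainly by T cells and NK cells, binds the receptor chains Ifngr1 and Ifngr2 and signals through the kinases Jak1 and Jak2. Early target genes are switched on through GAS elements (gamma-activated sites) in DNA, among them one in the Irf1 promoter, and Irf1 in turn binds interferon regulatory factor (IRF) elements in later genes. Guanylate-binding proteins and immunity-related GTPases are among the most strongly induced targets of this pathway in mouse macrophages, where they coat the vacuoles of intracellular pathogens and feed into inflammasome activation and autophagy. Type I interferons induce many of the same genes.

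The series had 20 RNA-seq libraries of C57BL/6 mice in 6 groups. Bone-marrow-derived macrophages (BMDM) and microglia (MG, the resident macrophages of the brain) came from 3 tumours of the glioma line GL261 (tumours 80766, 80767 and 80769) and from 3 tumours of a genetically engineered model (GEMM; tumours 68702, BB30101 and BB30105). The other groups were 3 libraries of MG from normal brain (numbered 67572 to 67574) and 5 of Ly6C-high blood monocytes (numbered 64817 to 64821). Per the labels, GEMM tumours followed intracranial injection of DF1 chicken fibroblasts that carried RCAS-PDGFB-HA or RCAS:shP53 into Flt3:Cre Rosa26:mTmG mice at week 6 of age. The Cre driver turns descendants of haematopoietic progenitors from TdTomato to GFP, and tumour cells in the Cd45+Cd11b+Ly6c-Ly6g- gate were split into GFP+ BMDM and TdTomato+ MG. The same protocol text stood on every sample. The labels do not say how GL261 tumours were made, whether their hosts or the donors of normal MG and monocytes carried the reporter, or how normal MG and monocytes were sorted.

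Library totals (rounded) were 18113400 to 22089000 counts in GL261 groups, 23064800 to 36297800 in GEMM groups, 26421800 to 30391700 in libraries of normal MG, and 5077790 to 7801070 in those of monocytes. The lowest count of any of the 8 genes in a library was 81 and the highest 23622. Summed markers of MG (P2ry12, Tmem119, Sall1, Siglech, Olfml3 and Sparc) were at 281 to 789 CPM in GL261 BMDM, 877 to 1959 CPM in GEMM BMDM, 1075 to 4633 CPM in GL261 MG, 6198 to 11397 CPM in GEMM MG and 17119 to 18731 CPM in normal MG, so MG of GL261 tumours held the least of them among the MG groups. Monocyte libraries 64820 and 64821 stood apart, with the rRNA precursor Rn45s at 13.5% and 14.3% of their counts. Tumour 80769 stood apart from the other GL261 tumours: chi-square per degree of freedom, comparing counts over genes with those of their libraries of the same cell type, was 178 to 234, against 34.4 and 38.0 between tumours 80766 and 80767. GEMM BMDM library 68702 stood apart as well, at 186 and 199, against 74.5 between GEMM BMDM libraries BB30101 and BB30105. The female transcript Xist was at 142 to 645 CPM and the Y-linked Ddx3y at 0 to 2.76 CPM in all 5 monocyte libraries, whereas the 15 others had Xist at 2.88 CPM or less and Ddx3y at 36.3 to 223 CPM. In bulk libraries, fewer expressing cells and less RNA per cell cannot be told apart.

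Gbp5, Gbp7, Gbp3 and Gbp2 lie in 1 cluster on chromosome 3 (GRCm38, the mm10 build): Gbp5 at 142493978-142522344, Gbp7 at 142530342-142550149, Gbp3 at 142560026-142573209 and Gbp2 at 142620602-142638008, all on the plus strand. Gbp9 lies in a further cluster on chromosome 5, at 105077630-105139539 on the minus strand. The 3 others are on chromosome 11, Irgm1 at 48861968-48871683 on the minus strand, and Irf1 at 53770014-53778374 and Igtp at 58199556-58207591 on the plus strand. Copies within the families are similar, which limits how far counts can be assigned to 1 gene. Of all 50-base stretches in the longest transcript, 12.85% in Gbp7, 12.32% in Igtp, 9.56% in Gbp9, 4.79% in Gbp3 and 2.07% in Gbp2 also occurred in transcripts of another gene, against 0.90% in Gbp5, 0.81% in Irgm1 and 0% in Irf1. Igtp shares 162 bases of exon with its neighbour Irgm2 on the same strand, Gbp7 shares 637 with the pseudogene Gm43802, and Irf1 shares 135 with Gm17334 on the opposite strand. No source states whether the authors' counting used strand.

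GAS and IRF elements are the known sites of action of the pathway, so promoters are printed for the 7 of 8 genes matched by symbol in RefSeq (GRCm38.p6), all but Gbp9. Each line gives the 110 bases before the start site, 5′ to 3′ in the direction of transcription. Capitals mark matches to the GAS letters TTCNNNGAA, which read the same on either strand, or to the IRF letters GAAANNGAA, searched on both strands.
Irf1, chr11:53769904-53770013, plus strand: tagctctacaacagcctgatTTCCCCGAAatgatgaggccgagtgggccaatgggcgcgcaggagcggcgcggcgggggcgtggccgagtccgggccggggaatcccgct
Gbp2, chr3:142620553-142620662, plus strand: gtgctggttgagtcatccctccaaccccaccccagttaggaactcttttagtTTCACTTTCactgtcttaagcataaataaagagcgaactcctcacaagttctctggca
Gbp3, chr3:142559934-142560043, plus strand: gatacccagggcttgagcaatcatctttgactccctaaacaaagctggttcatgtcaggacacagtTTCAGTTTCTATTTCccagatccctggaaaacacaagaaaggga
Gbp5, chr3:142496824-142496933, plus strand: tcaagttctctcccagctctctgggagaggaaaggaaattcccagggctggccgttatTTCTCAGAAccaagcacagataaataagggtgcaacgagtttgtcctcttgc
Gbp7, chr3:142530226-142530335, plus strand: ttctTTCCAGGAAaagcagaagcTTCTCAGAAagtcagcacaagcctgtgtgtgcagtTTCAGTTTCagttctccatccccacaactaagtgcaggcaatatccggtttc
Irgm1, chr11:48871421-48871530, minus strand: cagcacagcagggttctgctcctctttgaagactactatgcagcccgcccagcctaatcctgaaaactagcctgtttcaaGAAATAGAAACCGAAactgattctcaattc
Igtp, chr11:58199446-58199555, plus strand: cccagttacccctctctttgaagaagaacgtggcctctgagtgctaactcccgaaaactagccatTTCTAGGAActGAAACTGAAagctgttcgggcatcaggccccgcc

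In the full windows, from 250 bases before to 50 bases after the start, Irf1 held a GAS match and no IRF match, whereas Gbp2, Gbp3 and Irgm1 held IRF matches and no GAS match. Gbp5, Gbp7 and Igtp held both kinds, and second promoters of Gbp3 and Irf1 in RefSeq held none. In Gbp5 an IRF match and a further GAS match lie upstream of the bases printed. The matches in Gbp3 overlap each other, as do those in Irgm1, so that a single run of capitals holds 2 matches. In Igtp the GAS match begins at base -45 and the IRF match at base -34, counted from 0 at the start site. The same order and the same distance between first bases occurred in the family genes Irgm2 (-75 and -64), Tgtp1 (-88 and -77) and Tgtp2 (-81 and -70). Genes with a GAS match were thus 4 of 7 and genes with an IRF match 6 of 7. Of all 32851 promoters of this length in the table, 8.30% held the GAS letters, 8.56% the IRF letters and 1.07% both. A match describes the sequence only, and binding was not measured.

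**Figure D1:**
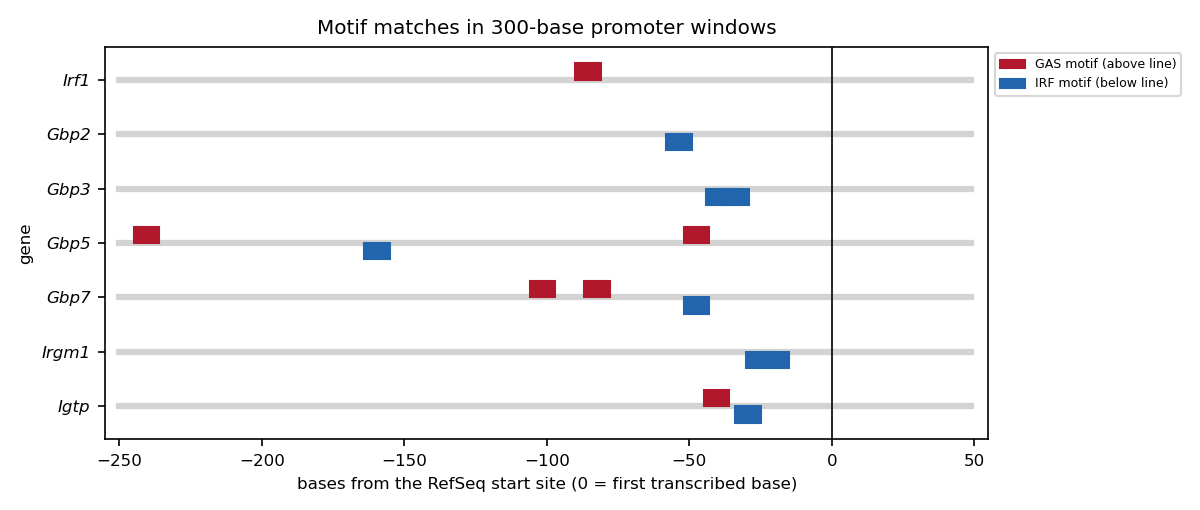
Positions of GAS matches (red, above each line) and IRF matches (blue, below) in the promoter windows of 7 genes. The x axis is the distance in bases from the RefSeq start site; most matches lie within 110 bases of it, and Gbp5 has matches beginning at -245 and -164 as well.

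Irf1, the factor that links the early and late steps, overlapped between most groups. It had 352, 257 and 160.4 CPM in GL261 BMDM (tumours 80766, 80767 and 80769), 239.7, 133 and 144 CPM in GEMM BMDM (tumours 68702, BB30101 and BB30105), 480.1, 372 and 165 CPM in GL261 MG, 199, 135 and 236 CPM in GEMM MG, 516, 323 and 262 CPM in normal MG, and 462, 296, 301, 217 and 265 CPM in blood monocytes. Group means were 257 ± 96.0 CPM in GL261 BMDM, 172 ± 58.7 in GEMM BMDM, 339 ± 160.4 in GL261 MG, 190.0 ± 51.1 in GEMM MG, 367 ± 132 in normal MG (SD, n = 3 each) and 308 ± 92.3 in monocytes (n = 5). Ordered by mean, every neighbouring pair of groups overlapped, and no comparison called Irf1. Its lowest adjusted p-values in edgeR's quasi-likelihood test were 0.0510 for GEMM BMDM against monocytes (log2 fold change -0.84 ± 0.35, SE) and 0.0550 for GEMM MG against normal MG (-0.95 ± 0.39), where the groups did not overlap. Both lay close to the threshold of 0.05, and the first was called in 9 and the second in 4 of the other settings and leave-outs.

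Gbp2, a guanylate-binding protein recruited to parasite vacuoles in mouse cells, had the widest fold range of group means of the 8 genes. It had 353, 224 and 127 CPM in GL261 BMDM, 92.0, 98.9 and 124 CPM in GEMM BMDM, 443, 278 and 180.2 CPM in GL261 MG, 89.0, 68.4 and 116 CPM in GEMM MG, 13.5, 13.3 and 11.2 CPM in normal MG, and 130.1, 93.9, 103, 81.1 and 79.2 CPM in monocytes. Every library of the other 5 groups was above every normal MG library. GL261 BMDM and GL261 MG overlapped each other, and both stood above GEMM BMDM, whose libraries overlapped those of monocytes.

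Gbp3 followed the same order as Gbp2 over a smaller range. It had 295, 212 and 103 CPM in GL261 BMDM, 135, 103 and 120.2 CPM in GEMM BMDM, 249, 215 and 168 CPM in GL261 MG, 85.7, 75.6 and 74.0 CPM in GEMM MG, 35.2, 40.4 and 36.5 CPM in normal MG, and 116, 117, 115, 103 and 101 CPM in monocytes. Normal MG were again below all other libraries, and GEMM MG came next, also without overlap with the groups above them. The lowest GL261 BMDM library lay just below all GEMM BMDM libraries and within the range of monocytes, while the other 2 lay above both groups.

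Gbp5, which promotes assembly of the NLRP3 inflammasome, was high in GL261 tumours and at similar levels in the 4 other groups. It had 105, 54.2 and 30.0 CPM in GL261 BMDM, 15.9, 11.8 and 21.9 CPM in GEMM BMDM, 99.5, 66.1 and 28.5 CPM in GL261 MG, 15.8, 11.4 and 21.7 CPM in GEMM MG, 15.3, 13.5 and 12.3 CPM in normal MG, and 19.1, 16.1, 19.6, 16.7 and 17.6 CPM in monocytes. All 6 GL261 libraries were above all 14 others, and the other groups overlapped their neighbours in order of mean.

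Gbp7 differed from Gbp2 and Gbp3 in that normal MG already had it at the level of GEMM tumours. It had 488, 306 and 146 CPM in GL261 BMDM, 143, 141 and 132 CPM in GEMM BMDM, 346, 286 and 148 CPM in GL261 MG, 106, 115 and 136 CPM in GEMM MG, 134, 142 and 139.8 CPM in normal MG, and 112, 66.2, 79.5, 62.7 and 61.4 CPM in monocytes. The GL261 libraries again stood above the rest, tumour 80769 only narrowly, and monocytes had the lowest mean.

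Gbp9 had the narrowest range of group means among the GTPases. It had 181, 114 and 85.9 CPM in GL261 BMDM, 90.4, 76.3 and 63.0 CPM in GEMM BMDM, 127, 102 and 73.2 CPM in GL261 MG, 61.0, 49.9 and 56.2 CPM in GEMM MG, 40.7, 50.3 and 48.6 CPM in normal MG, and 145, 121, 102, 97.2 and 114 CPM in monocytes. Monocytes ranked second by mean, between GL261 BMDM and GL261 MG, and overlapped both.

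Irgm1, a regulatory immunity-related GTPase that guards host membranes against the effector GTPases, was highest in GL261 MG. It had 655, 630.5 and 358 CPM in GL261 BMDM, 219.6, 128 and 178 CPM in GEMM BMDM, 876, 869 and 884 CPM in GL261 MG, 219, 144 and 223 CPM in GEMM MG, 83.2, 103 and 97.4 CPM in normal MG, and 263, 272, 247, 220.0 and 229 CPM in monocytes. The 3 GL261 MG libraries were close to each other and above all 17 others.

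Igtp, another regulatory member of that family, resembled Irgm1. It had 361, 325 and 149.6 CPM in GL261 BMDM, 96.8, 46.9 and 75.0 CPM in GEMM BMDM, 505, 505 and 306 CPM in GL261 MG, 95.5, 60.9 and 111 CPM in GEMM MG, 61.6, 77.3 and 66.5 CPM in normal MG, and 165, 138, 126, 90.6 and 90.3 CPM in monocytes. GL261 MG were above all groups but GL261 BMDM, and GEMM BMDM, GEMM MG and normal MG overlapped one another.

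**Figure D2:**
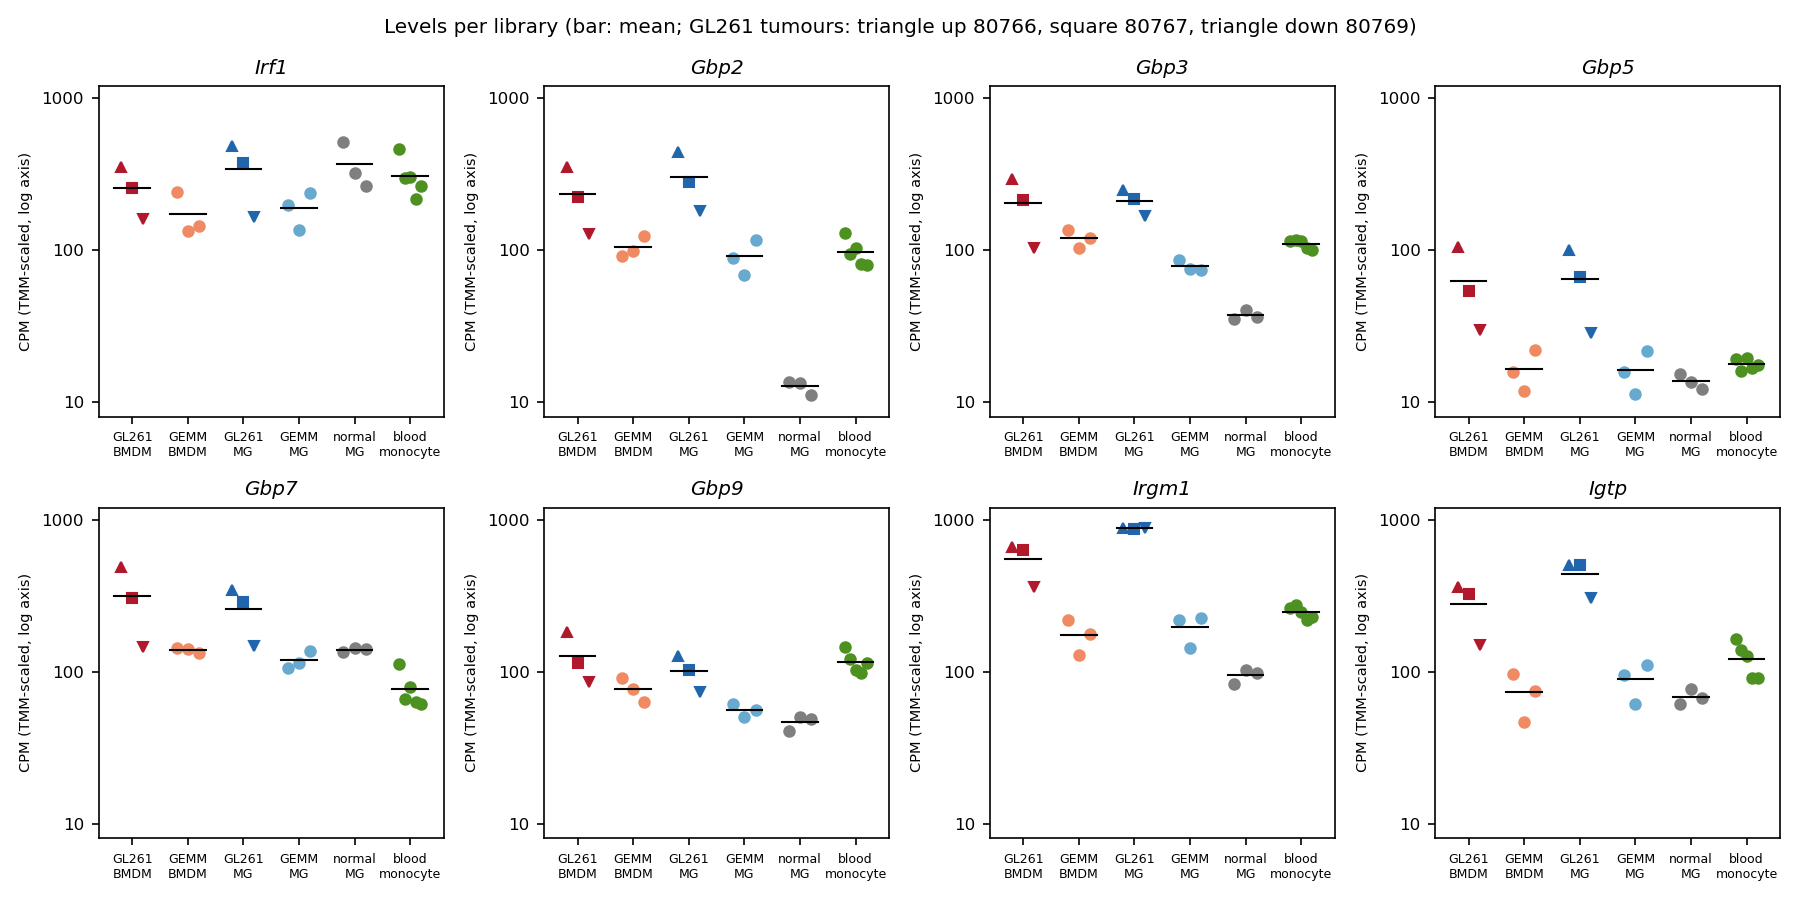
CPM of the 8 genes in each of 20 libraries (log axis, same scale in every panel) for GL261 BMDM, GEMM BMDM, GL261 MG, GEMM MG, normal MG and blood monocytes; bars are group means and the 3 GL261 tumours have their own symbols. Gbp2 is lowest in normal MG at 11.2 to 13.5 CPM, Irgm1 highest in GL261 MG at 869 to 884 CPM, and Irf1 overlaps across all groups next to each other in order of mean.

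Levels can be compared between genes only per length. Per kilobase of annotated exon, the highest mean level was that of Igtp in GL261 BMDM (138 ± 55.9) and GL261 MG (217 ± 56.8 CPM per kilobase, SD, n = 3 each). In GEMM BMDM, GEMM MG, normal MG and monocytes Irf1 was highest, at 43.3, 47.8, 92.3 and 77.5 CPM per kilobase. Gbp5 was lowest in all 6 groups, at 2.06 to 9.75 CPM per kilobase. In normal MG, Irf1 at 92.3 stood beside Gbp2 at 5.04 CPM per kilobase. Annotated exon merges all transcripts of a gene, at 5810 bases for Irgm1 and 2022 for Igtp. The longest transcripts have 2259 and 2022 bases. Per length of the longest transcript, Irgm1 would stand above Igtp in both GL261 groups, so that rank depends on the length used.

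MG of GL261 tumours, set against normal MG, showed the largest changes. Of the 8 genes, 7 rose (adjusted p under 0.05 in edgeR's quasi-likelihood test, Benjamini-Hochberg over 15363 genes), none fell, and the median log2 fold change was 2.37, beside 30.6% of all genes higher and 27.2% lower and a median over all genes of 0.01. Gbp2 was 23.7-fold higher (301 ± 133 CPM in GL261 MG against 12.7 ± 1.28 CPM in normal MG, log2 4.57 ± 0.38 SE, adjusted p = 4.23e-08). Irgm1 rose 9.27-fold (876 ± 7.43 CPM in GL261 MG against 94.5 ± 10.2 CPM in normal MG, adjusted p = 1.58e-08), Igtp 6.41-fold (439 ± 115 CPM in GL261 MG against 68.5 ± 8.05 CPM in normal MG, adjusted p = 5.04e-06), Gbp3 5.64-fold (adjusted p = 3.87e-07) and Gbp5 4.72-fold (adjusted p = 0.000189). Gbp9 and Gbp7 rose 2.17-fold and 1.88-fold (adjusted p = 0.000713 and 0.0281). None of the 7 overlapped between the groups, but the share of all genes without overlap is not given. Scaling by library totals alone gave 5810 genes higher and 2788 lower, against 4701 and 4178 with TMM, and the same count of members. Irf1 had 339 ± 160.4 CPM in GL261 MG and 367 ± 132 CPM in normal MG (log2 -0.12 ± 0.38, approximate 95% interval -0.87 to 0.64, adjusted p = 0.817). The call for Gbp7 was lost without tumour 80766 (log2 0.65, adjusted p = 0.0808 without both its libraries), and also when GL261 MG library 80767 or any single normal MG library was left out, at log2 0.83 to 0.93 and adjusted p of 0.0609 to 0.0711. MG markers fell together in this comparison, 6 of 6, all 8 T cell markers and all 5 markers of oligodendrocyte precursors or glioma cells rose, and their part in the result was not tested.

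MG of GEMM tumours, set against normal MG, changed in fewer of the genes. Gbp2 rose 7.18-fold (91.2 ± 23.9 CPM in GEMM MG against 12.7 ± 1.28 CPM in normal MG, log2 2.84 ± 0.35, adjusted p = 5.83e-06), Gbp3 2.10-fold (78.4 ± 6.31 CPM in GEMM MG against 37.3 ± 2.71 CPM in normal MG, adjusted p = 0.00202) and Irgm1 2.07-fold (195 ± 44.8 CPM in GEMM MG against 94.5 ± 10.2 CPM in normal MG, adjusted p = 0.00113). These 3 of 8 stood beside 23.0% of all genes called higher and 20.9% lower, with a median log2 fold change of 0.32 over the 8 and -0.02 over all genes. The log2 fold changes of the other GTPases were 0.38 for Igtp, 0.26 for Gbp9, 0.25 for Gbp5 and -0.22 for Gbp7, each with an adjusted p above 0.05 and an approximate 95% interval that spans 0. The 3 calls held in each setting and leave-out run for this comparison. All 5 markers of oligodendrocyte precursors or glioma cells, 4 of 5 BMDM or monocyte markers and 4 of 8 T cell markers rose and 2 of 6 MG markers fell, and their part in the result was not tested.

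The GL261 and GEMM comparisons share the normal MG libraries, so the models were also set against each other. In MG, 7 of 8 genes were higher in GL261 than in GEMM tumours, beside 18.8% of all genes higher and 15.5% lower. The median log2 fold change was 1.57 over the 8 genes and 0.04 over all genes. Igtp differed 4.93-fold (439 ± 115 CPM in GL261 MG against 89.1 ± 25.5 CPM in GEMM MG, log2 2.30 ± 0.35, adjusted p = 9.91e-05), Irgm1 4.48-fold (876 ± 7.43 CPM in GL261 MG against 195 ± 44.8 CPM in GEMM MG, adjusted p = 5.36e-06) and Gbp5 3.98-fold (64.7 ± 35.5 CPM in GL261 MG against 16.3 ± 5.19 CPM in GEMM MG, adjusted p = 0.00137). Gbp2, Gbp3, Gbp7 and Gbp9 differed by 3.30, 2.69, 2.19 and 1.81-fold. No library of GL261 MG overlapped those of GEMM MG for these 7. The share of all genes without overlap is not given, so this describes the 7 genes only. Irf1 had 339 ± 160.4 CPM in GL261 MG and 190.0 ± 51.1 CPM in GEMM MG (log2 0.84 ± 0.39, adjusted p = 0.104), and it was called without GL261 MG library 80769 (1.09, adjusted p = 0.0348). Without GL261 MG library 80766, Gbp7 (0.87, adjusted p = 0.0704) and Gbp9 (0.65, adjusted p = 0.0527) lost their calls, and Gbp7 did so without GEMM MG library 68702 too (1.05, adjusted p = 0.0615). Scaling by library totals alone raised the median of all genes by 0.44 in this comparison (5720 genes higher and 924 lower, against 2892 and 2383 with TMM), and all 8 genes were then higher. With TMM, 4 of 6 MG markers were lower and none higher. Of 5 markers of oligodendrocyte precursors or glioma cells 3 were higher and 1 lower. The part of these markers in the result was not tested.

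BMDM showed the same 7 genes higher in GL261 than in GEMM tumours, beside 10.2% of all genes higher and 9.46% lower, with a median log2 fold change of 1.17 over the 8 genes and -0.04 over all genes. Igtp differed 3.82-fold (278 ± 113 CPM in GL261 BMDM against 72.9 ± 25.0 CPM in GEMM BMDM, log2 1.93 ± 0.34, adjusted p = 0.000778), Gbp5 3.81-fold (63.0 ± 38.2 CPM in GL261 BMDM against 16.5 ± 5.05 CPM in GEMM BMDM, adjusted p = 0.00331) and Irgm1 3.13-fold (548 ± 165 CPM in GL261 BMDM against 175 ± 45.9 CPM in GEMM BMDM, adjusted p = 0.000103). These 3 held in each setting and leave-out run. Gbp7 (log2 1.18 ± 0.34), Gbp2 (1.16 ± 0.33), Gbp3 (0.77 ± 0.25) and Gbp9 (0.73 ± 0.24) had adjusted p-values of 0.0207, 0.0193, 0.0349 and 0.0379 and were less stable. Without tumour 80766 their log2 fold changes were 0.70, 0.74, 0.40 and 0.39, none was called, and 3 of 8 genes remained. Each of the 4 also lost its call in the fit of the groups compared alone (adjusted p of 0.0802 to 0.195) and without GEMM BMDM library BB30101. Gbp2, Gbp3 and Gbp7 lost it without GEMM BMDM library 68702 (adjusted p of 0.0503 to 0.0723), Gbp3, Gbp7 and Gbp9 without BB30105 (0.0559 to 0.119), and Gbp3 and Gbp9 without GL261 BMDM library 80767 (0.0873 and 0.0545). Gbp3 and Gbp9 overlapped between the groups. With library totals alone 2019 genes were higher and 956 lower, against 1573 and 1454 with TMM, and 7 members were higher. Irf1 had 257 ± 96.0 CPM in GL261 BMDM and 172 ± 58.7 CPM in GEMM BMDM (log2 0.57 ± 0.39, adjusted p = 0.314). With TMM, 5 of 7 dendritic cell markers and 5 of 6 MG markers were lower in GL261 BMDM, and none was higher. Of 5 markers of oligodendrocyte precursors or glioma cells, 4 were higher and none lower. The part of these markers in the result was not tested.

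**Figure D3:**
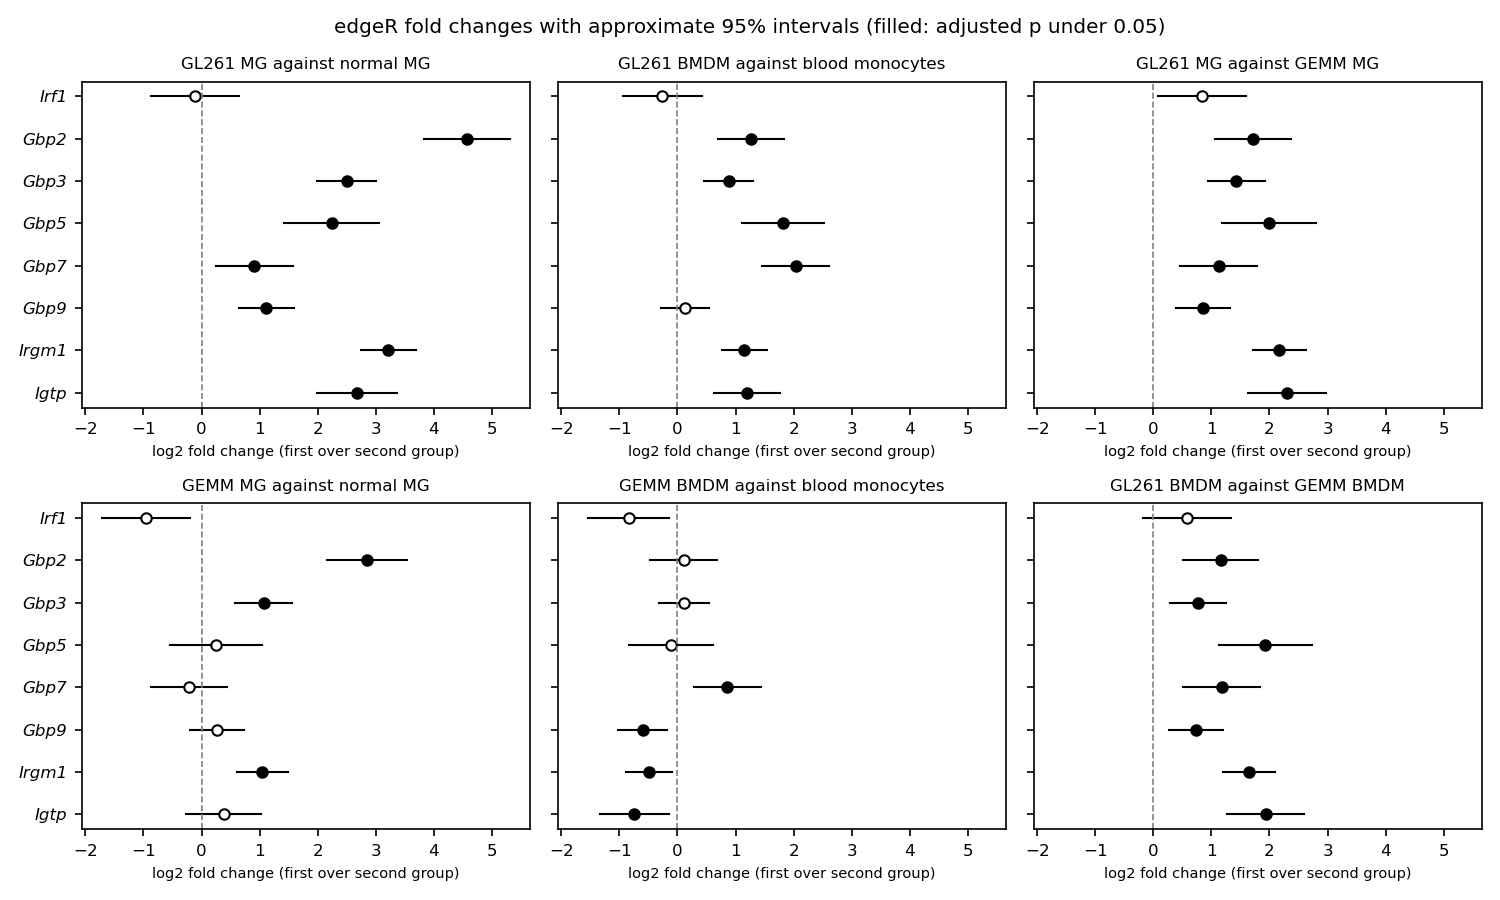
Log2 fold changes (first over second group) of the 8 genes in 6 comparisons from edgeR, with approximate 95% intervals; filled points have an adjusted p under 0.05. Gbp2 reaches 4.57 in GL261 MG against normal MG and 2.84 in GEMM MG against normal MG, and Irf1 is not called in any panel.

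Against blood monocytes, the cells that give rise to BMDM, Irgm1 and Igtp rose in GL261 BMDM. In GEMM BMDM both were called lower, close to the threshold, and those calls were lost in several leave-outs. Sex and group cannot be told apart in comparisons with monocytes. In GL261 BMDM 6 of 8 genes rose and none fell, beside 34.1% of all genes higher and 28.9% lower. Gbp7 rose 4.10-fold (313 ± 171 CPM in GL261 BMDM against 76.4 ± 21.2 CPM in monocytes, log2 2.03 ± 0.30, adjusted p = 1.15e-05) and Gbp5 3.53-fold (adjusted p = 0.000265). Gbp2, Igtp, Irgm1 and Gbp3 rose 2.40, 2.28, 2.22 and 1.85-fold, and all 6 calls held in each setting and leave-out run. Libraries of Gbp2, Gbp3 and Igtp nevertheless overlapped between the groups. Gbp9 had 127 ± 49.0 CPM in GL261 BMDM and 116 ± 18.9 CPM in monocytes (log2 0.13 ± 0.21, adjusted p = 0.604).

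In GEMM BMDM 1 gene was higher than in monocytes and 3 were lower, beside 31.6% of all genes higher and 25.7% lower. Gbp7 was 1.81-fold higher (139 ± 5.87 CPM in GEMM BMDM against 76.4 ± 21.2 CPM in monocytes, adjusted p = 0.0192). Gbp9 (76.6 ± 13.7 CPM in GEMM BMDM against 116 ± 18.9 CPM in monocytes, log2 -0.60 ± 0.22, adjusted p = 0.0252), Irgm1 (175 ± 45.9 CPM in GEMM BMDM against 246 ± 22.1 CPM in monocytes, -0.49 ± 0.20, adjusted p = 0.0450) and Igtp (72.9 ± 25.0 CPM in GEMM BMDM against 122 ± 31.9 CPM in monocytes, -0.74 ± 0.30, adjusted p = 0.0446) were lower. Among the called genes, Igtp overlapped between the groups. Gbp7 was no longer called without monocyte libraries 64820 and 64821 (log2 0.69, adjusted p = 0.104) or without GEMM BMDM library BB30105 (0.84, adjusted p = 0.0513). Without GEMM BMDM library BB30101, Gbp9, Irgm1 and Igtp were at -0.60, -0.31 and -0.51 (adjusted p = 0.0627, 0.236 and 0.207), and without BB30105 at -0.53, -0.55 and -0.81 (0.0928, 0.0654 and 0.0735). Leaving out monocyte library 64817 also ended the 3 calls (adjusted p of 0.0601 to 0.103), leaving out 64818 or 64819 ended those of Irgm1 and Igtp (0.0653 to 0.0830), and leaving out 64821 ended that of Irgm1 (0.0513). GEMM BMDM library 68702 held 1998 CPM of summed neutrophil markers, and monocyte libraries held 1357 to 22322 CPM of them; their part in the result was not tested.

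BMDM were also set against MG of the same tumours. In GL261 tumours 1 of 8 genes was lower in BMDM than in MG and none higher, beside 10.7% of all genes higher and 6.81% lower. That gene was Irgm1, at 548 ± 165 CPM in BMDM and 876 ± 7.43 CPM in MG (log2 -0.68 ± 0.22, adjusted p = 0.0436). The call was lost without tumour 80769 (-0.51, adjusted p = 0.154), without tumour 80766 (-0.83, adjusted p = 0.0686), without GL261 BMDM library 80769 (-0.45, adjusted p = 0.163), and without any single GL261 MG library (-0.68 to -0.66, adjusted p of 0.0716 to 0.0884). Over all genes, library totals alone gave 920 higher and 3042 lower, against 1646 and 1046 with TMM. With the tumour as a block, Irgm1 was called (-0.73 ± 0.19, adjusted p = 0.0326) and so was Igtp (log2 -0.72 ± 0.16, adjusted p = 0.0166), which without the block was at -0.66 ± 0.33 (adjusted p = 0.180). Igtp and Irgm1 were lower in BMDM in all 3 tumours, by 0.48, 0.64 and 1.03 and by 0.42, 0.46 and 1.30 on the log2(CPM + 1) scale (tumours 80766, 80767 and 80769). Gbp2 and Irf1 were also lower in BMDM in all 3 tumours, and Gbp9 was higher in all 3, none of them called.

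In GEMM tumours none of the 8 genes was called between BMDM and MG in the fit of all libraries without the block, beside 12.7% of all genes higher and 8.10% lower; at an unadjusted p under 0.05 there was 1 gene, Gbp3, and DESeq2 and limma-voom called 0 as well. The fit of only these 2 groups called Gbp3 (log2 0.60, adjusted p = 0.0204). With the tumour as a block, Gbp3 (log2 0.60 ± 0.18, adjusted p = 0.0428) and Gbp9 (0.45 ± 0.13, adjusted p = 0.0401) were higher in BMDM. Gbp3 had 119.7 ± 16.0 CPM in GEMM BMDM and 78.4 ± 6.31 CPM in GEMM MG, and Gbp9 had 76.6 ± 13.7 CPM in GEMM BMDM and 55.7 ± 5.55 CPM in GEMM MG, neither with overlap between the groups. Both were higher in BMDM in all 3 tumours. With TMM scaling, Gbp2 and Gbp5 were also higher there in all 3, but neither was called. The signs for Gbp2 in tumour 68702 and for Gbp5 in tumours 68702 and BB30101 depend on that scaling. On the log2(CPM + 1) scale Gbp2 differed by 0.0468, 0.525 and 0.0988 (tumours 68702, BB30101 and BB30105). Gbp5 differed by 0.0102, 0.0518 and 0.01, next to no difference. The sign of its log2 fold change turned with DESeq2 and with RLE factors. The difference between BMDM and MG was not called to differ between GL261 and GEMM tumours for any of the 8 genes (interaction, adjusted p of 0.382 to 0.993, beside 0.605% of all genes higher and 1.02% lower), none had an unadjusted p under 0.05, and DESeq2 and limma-voom also called 0. Over all genes the split was 93 higher and 157 lower with TMM, and 39 and 406 with library totals alone. The log2 differences ran from -0.66 for Gbp3 to 0.05 for Gbp7, with approximate 95% intervals as wide as -1.17 to 1.05 for Gbp5, so that moderate differences between models would not have been detectable.

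**Figure D4:**
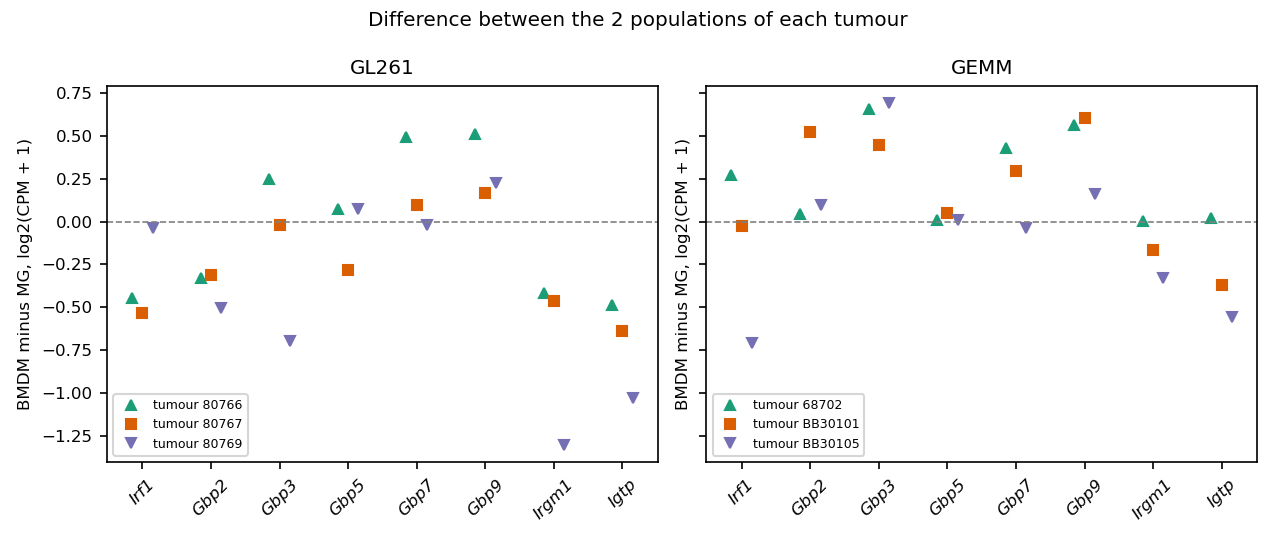
BMDM minus MG of the same tumour on the log2(CPM + 1) scale for the 8 genes in 3 GL261 tumours (left) and 3 GEMM tumours (right); the dashed line marks no difference. Irgm1, Igtp, Gbp2 and Irf1 lie below 0 and Gbp9 above 0 in every GL261 tumour, and Gbp2, Gbp3, Gbp5 and Gbp9 above 0 in every GEMM tumour. Gbp5 lies above 0 there by only 0.01 to 0.0518.

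The 3 GL261 tumours differed from each other in a shared order. In GL261 BMDM all 8 genes were highest in tumour 80766, intermediate in 80767 and lowest in 80769, and the highest library exceeded the lowest by 1.83 to 3.49 times. In GL261 MG 7 of the 8 genes had that order. Irgm1 was the exception, at 876, 869 and 884 CPM, with a ratio of 1.02 between the highest and the lowest library, against up to 3.49 for Gbp5. The share of all genes with that order of tumours is not given, so the counts describe the 8 genes only. Tumour 80769 also stood apart over all genes. Without both libraries of tumour 80769, the calls that changed among the 8 genes were that of Irgm1 in GL261 BMDM against GL261 MG, which was lost, and that of Irf1 in GL261 MG against GEMM MG, which was gained (log2 1.16, adjusted p = 0.0172). Summed MG markers were at 4633, 3718 and 1075 CPM in GL261 MG of tumours 80766, 80767 and 80769, and summed dendritic cell markers at 119, 75.6 and 527 CPM in GL261 BMDM; their part in the order of the tumours was not tested. In GEMM groups the commonest order was shared by 4 genes in BMDM and 5 genes in MG. Across all 20 libraries, deviations from group means correlated positively in all 28 pairs of the 8 genes (Pearson r of 0.51 to 0.92, median 0.77), with the highest r between Gbp2 and Gbp5 and the lowest between Gbp7 and Irgm1. Levels themselves correlated at a median r of 0.76 in the 21 pairs without Irf1 and 0.27 in the 7 pairs with it, down to -0.03 for Irf1 and Gbp2. These values describe 20 libraries that share depth and scaling, and they carry no test. Values for pairs of other genes are not given.

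Genes outside the 8 with the most similar levels over the 20 libraries were Tapbpl (a peptide editor of MHC class I, r = 0.96 with the mean of the standardised members), Gm12250 (0.91), Il12rb1 (a chain of the IL-12 receptor, 0.90), Parp11 (0.89), Parp10 (0.88), Tap2 (0.88), Batf2 (0.87), Serpina3f (0.87), Cnp (0.86) and Pnpt1 (0.86), of 8915 candidate genes. On deviations from group means the 10 closest were Abr (0.96), Dtx3l (0.95), Tlr12, Trim14, Lilra5, 1600014C10Rik (0.95 each), Gpd1l (0.94), Znfx1 (0.94), Klhl6 (0.93) and Tor3a (0.93). No gene was in both sets. Among the 8 themselves, Igtp and Gbp5 were closest to the mean level (r = 0.95 each) and Irf1 farthest (0.40), whereas on deviations Irf1 was at 0.86.

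The ligand was scarce and varied between the GL261 tumours. Ifng had 10.5, 2.73 and 0.0929 CPM in GL261 BMDM of tumours 80766, 80767 and 80769 (208, 53 and 2 counts), 0.470, 0.736 and 1.94 CPM in GEMM BMDM, 0.986, 1.37 and 0.0748 CPM in GL261 MG (23, 31 and 2 counts), and 0 counts in all 3 GEMM MG and all 3 normal MG libraries, where a count of 0 allows up to 0.148 and 0.118 CPM per library (3 counts, counting error only). Monocytes had 0.149 to 0.879 CPM. Tumour 80769 had 2 Ifng counts in each population. In edgeR, Ifng was higher in GL261 MG than in GEMM MG (adjusted p = 0.0137) and than in normal MG (adjusted p = 0.00632), and higher in GEMM BMDM than in GEMM MG (adjusted p = 0.0153), but GL261 BMDM against GEMM BMDM was not called (adjusted p = 0.217).

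T cells and NK cells are known sources of this ligand, and their markers were measured in the same libraries. Summed T cell markers were at 17.0, 27.5 and 19.1 CPM in GL261 BMDM (tumours 80766, 80767 and 80769), 34.4 to 78.6 CPM in GEMM BMDM, 15.3, 11.9 and 20.3 CPM in GL261 MG, 2.51 to 11.0 CPM in GEMM MG, 0.744 to 1.24 CPM in normal MG and 39.6 to 117 CPM in monocytes. Cd3e and Cd8a were at 0 in all normal MG libraries. Single genes, named here after their values were seen, weighed heavily in these sums. In GEMM BMDM, Cd4 was at 15.5 to 28.0 CPM and Cd3e at 0.651 to 9.87 CPM. Lck had a mean of 9.01 CPM in GL261 MG. Summed NK cell markers were at 31.0, 44.9 and 40.1 CPM in GL261 BMDM, 17.4 to 50.8 CPM in GEMM BMDM, 16.7, 14.6 and 9.80 CPM in GL261 MG, 3.94 to 8.07 CPM in GEMM MG and 0.548 to 0.994 CPM in normal MG. In GL261 BMDM against GEMM BMDM, 0 of 8 T cell markers was higher and 1 was lower, and no NK cell marker was called. Of all genes, 10.2% were higher and 9.46% lower there. In GL261 MG against GEMM MG, 1 of 8 T cell markers and 2 of 7 NK cell markers were higher and 1 NK cell marker was lower. Of all genes, 18.8% were higher and 15.5% lower in that comparison. The part of such cells in the results was not tested.

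Against normal MG, Ifngr1 and Jak1 fell in MG of both models. Ifngr1, the ligand-binding chain, had 418 ± 27.8 CPM in GL261 BMDM, 689 ± 55.6 in GEMM BMDM, 275 ± 108 in GL261 MG, 526 ± 70.4 in GEMM MG, 1555 ± 205 in normal MG and 1149 ± 113 in monocytes, lowest on average in the GL261 groups. It fell in GL261 MG against normal MG (log2 -2.50 ± 0.24, adjusted p = 1.60e-07), in GEMM MG against normal MG (-1.57 ± 0.23, adjusted p = 3.23e-05) and in GL261 MG against GEMM MG (-0.93 ± 0.23, adjusted p = 0.00411). Jak1 fell in the same 3 comparisons (log2 -1.49, -0.74 and -0.75). With library totals alone, the differences between GL261 MG and GEMM MG were -0.50 for Ifngr1 (adjusted p = 0.0823) and -0.31 for Jak1 (adjusted p = 0.162), neither called, while both genes still fell against normal MG. Ifngr2 fell in GL261 MG against normal MG and GEMM MG (-0.58 and -1.21; -0.28, not called, and -0.78 with library totals) and was higher in GEMM MG than in normal MG (0.63, adjusted p = 0.0119). Jak2 was higher in BMDM than in MG, at 273 ± 113 CPM in GL261 BMDM against 94.5 ± 19.5 CPM in GL261 MG (adjusted p = 0.00389) and at 380.1 ± 188 CPM in GEMM BMDM against 66.6 ± 18.7 CPM in GEMM MG (adjusted p = 5.49e-05).

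Of 15 tested genes of the interferon-gamma signalling list, 2 rose and 6 fell in GL261 MG against normal MG (median log2 fold change -0.24), 2 rose and 5 fell in GEMM MG against normal MG (median -0.18), and 2 rose and 5 fell in GL261 MG against GEMM MG (median -0.15). In GL261 BMDM against GEMM BMDM none rose and 2 fell. Over all genes, 30.6% rose and 27.2% fell in GL261 MG against normal MG, and 23.0% and 20.9% in GEMM MG against normal MG. The shares were 18.8% and 15.5% in GL261 MG against GEMM MG, and 10.2% and 9.46% in GL261 BMDM against GEMM BMDM. Counts of the listed genes depended on the scaling: with library totals alone 4 rose and 4 fell in GL261 MG against normal MG, 7 rose and 1 fell in GL261 MG against GEMM MG, and none was called in GL261 BMDM against GEMM BMDM. The inhibitor Socs1 was higher in GL261 MG than in GEMM MG (log2 1.62 ± 0.39, adjusted p = 0.00370), and it fell in GEMM MG against normal MG (-1.53 ± 0.39, adjusted p = 0.00361).

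Other guanylate-binding and immunity-related GTPases, 18 of which were tested, were also mostly higher in GL261 tumours. In GL261 MG against GEMM MG 14 of 18 were higher and none lower (median log2 fold change 2.50, against 0.04 over all genes), and in GL261 BMDM against GEMM BMDM 12 were higher and none lower (median 1.57). Over all genes, 18.8% were higher and 15.5% lower in MG, and 10.2% and 9.46% in BMDM. Gbp6 had 202, 134 and 52.7 CPM in GL261 BMDM, 32.9, 22.6 and 19.2 CPM in GEMM BMDM, 185, 149 and 96.9 CPM in GL261 MG, 23.0, 15.6 and 29.8 CPM in GEMM MG and 0.0686 to 0.302 CPM in normal MG. Ifi47 and Tgtp1 were higher in GL261 MG than in GEMM MG by 3.27 ± 0.32 and 5.95 ± 0.46 on the log2 scale (adjusted p = 2.95e-06 and 2.95e-07), and they were also higher in GEMM BMDM than in GEMM MG, by 2.92 ± 0.32 and 3.89 ± 0.43 (adjusted p = 6.01e-06 and 6.39e-06).

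Against normal MG, 13 of these 18 genes rose and 1 fell in GL261 MG, and 12 rose and 3 fell in GEMM MG (medians 4.79 and 2.08). Of all genes, 30.6% rose and 27.2% fell in GL261 MG, and 23.0% rose and 20.9% fell in GEMM MG. Gbp6, Tgtp2, Iigp1 and Ifi47 rose in GEMM MG by 6.78, 4.35, 5.73 and 2.27 on the log2 scale, with adjusted p-values of 7.49e-08 to 2.33e-05. Irgm2, a further regulatory gene, named here after its values were seen, was 1 of the 3 that fell in GEMM MG (51.1 ± 12.3 CPM against 116 ± 20.2 CPM in normal MG, log2 -1.18 ± 0.31, adjusted p = 0.00552), and it had 149 ± 30.0 CPM in GL261 MG (0.37 ± 0.31 against normal MG, adjusted p = 0.326). Igtp and Irgm2 share 12.32% of the 50-base stretches of Igtp, so their counts are not fully separate.

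**Figure D5:**
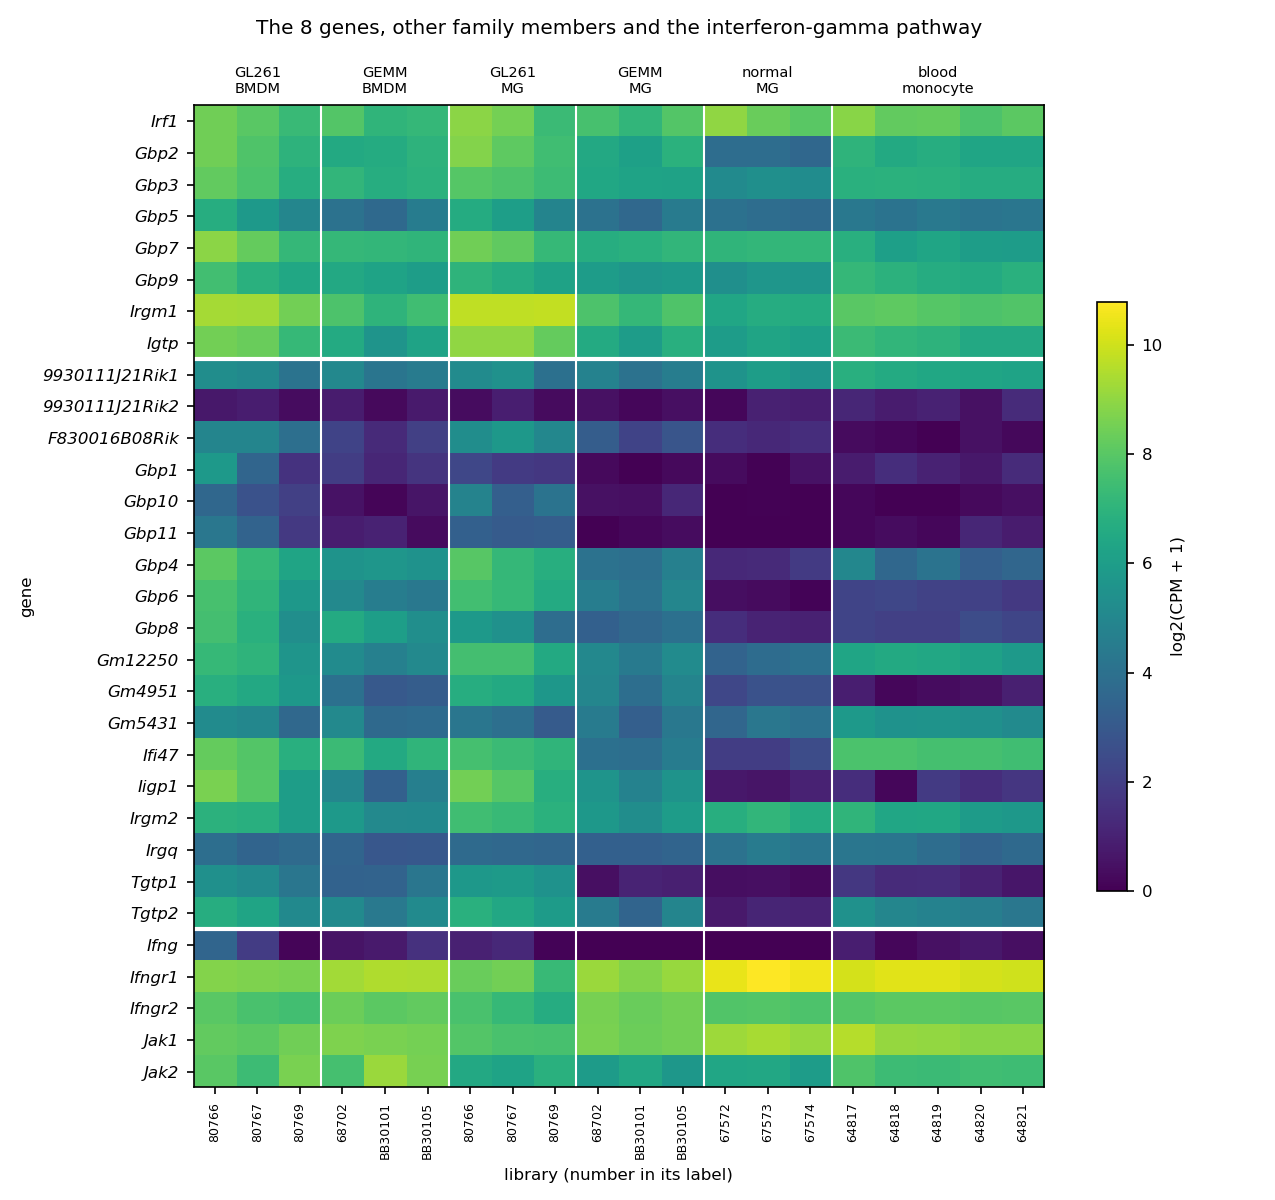
Log2(CPM + 1) in each library (columns, by group) of the 8 genes (top block), 18 other guanylate-binding and immunity-related GTPases (middle block) and 5 genes of the interferon-gamma pathway (bottom block). Gbp6, Iigp1 and Tgtp2 are brighter in GL261 libraries than in normal MG, Ifng is at 0 in GEMM MG and normal MG, and Ifngr1 is brightest in normal MG.

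Other targets of interferon-gamma, 19 of 20 of which were tested, rose in MG of both models against normal MG, 16 in GL261 MG and 15 in GEMM MG with none lower (medians 2.80 and 2.03). In GL261 MG against GEMM MG 10 of 19 were higher and 2 lower, and in GL261 BMDM against GEMM BMDM 8 were higher and none lower. Of all genes, 30.6% were higher and 27.2% lower in GL261 MG, and 23.0% and 20.9% in GEMM MG, against normal MG. Between GL261 and GEMM tumours, 18.8% were higher and 15.5% lower in MG of GL261, and 10.2% and 9.46% in BMDM. By adjusted p, Serpina3g, Batf2, Psmb9 and Nlrc5 came first in the comparison of MG, at log2 3.72 ± 0.42, 2.55 ± 0.33, 0.86 ± 0.15 and 1.59 ± 0.30 (adjusted p of 9.36e-06 to 0.000625). Batf2 and Serpina3g also came first by p in that of BMDM (1.69 ± 0.32 and 1.86 ± 0.39, adjusted p = 0.00119 and 0.00272). Genes of the type I interferon response rose in MG of both models. Their list also held the ligand gene Ifnb1 and the receptor genes Ifnar1 and Ifnar2. Of the listed genes, only Ifnar1 and Ifnar2 had a lower mean in GL261 MG than in normal MG. Their means were 90.6 against 124 CPM and 128 against 260 CPM. Of 24 tested, 20 rose and 2 fell in GL261 MG and 21 rose and none fell in GEMM MG against normal MG, while 6 were higher and 2 lower in GL261 MG against GEMM MG and 3 were higher in GL261 BMDM against GEMM BMDM (medians 0.39 and 0.27). With library totals alone 13 were higher and 1 lower in GL261 MG against GEMM MG. Genes for GTPase loading and effector partners, such as the autophagy genes that place these GTPases on membranes in mouse cells, differed in count between scalings in MG. Of 16 tested, none was higher and 7 were lower in GL261 MG against GEMM MG, with Pycard, Atg5 and Gabarap at log2 -1.09, -0.81 and -0.70 (adjusted p of 0.000283 to 0.000670), and none was higher and 1 lower in GL261 BMDM against GEMM BMDM. With library totals alone 1 was higher and 2 lower in GL261 MG against GEMM MG, and Pycard, Atg5 and Gabarap were at -0.65, -0.37 and -0.26, Gabarap not called (adjusted p = 0.114).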

How the data were processed

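RNA-seq of poly(A) RNA from 20 samples was analysed from 1 table of raw read counts per gene symbol, as deposited by the authors. Per the submitters' processing notes, CASAVA 1.8, STAR 2.5.0e, HTSeq and DESeq2 were used with mm10; annotation and strand setting are unstated. Groups came from the labels. The labels number animals but do not describe each library's origin in full, so the replicate spread behind each p-value may be partly technical.

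Counts were tested with edgeR 4.0.16 (quasi-likelihood, robust, TMM; R 4.3.3) on all 20 libraries after filterByExpr (minimum count 10, minimum total 15), with Benjamini-Hochberg adjustment over 15363 genes and a threshold of 0.05. SE is the log2 fold change divided by the root of F, and 95% intervals are approximate. The steps were tested on simulated data. DESeq2 1.42.0 and limma 3.58.1 (voom), other scalings, filters and leave-outs were alternatives. Library totals, the leave-outs of whole tumours and of monocytes 64820 and 64821 were chosen after seeing the data. Replicate numbers pair BMDM and MG of 1 tumour, per the design text: deviations from group means correlated at 0.28 to 0.51 within a number and at most 0.14 between numbers. Deviations in a group cancel for each gene, so positive values within numbers lower those between numbers. Every pair of libraries differed by more than sampling noise.

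The members, gene lists and tests were chosen with earlier results of these data known. All 8 members are named, and from each list at most the 5 called genes with the smallest p, plus the ligand, receptor, kinase and factor genes. Of the MG marker and signalling lists, 1 gene each is not reported here. Likeness is Pearson's r over 20 libraries with the mean of the members' standardised log2(CPM + 1), among genes at 20 CPM or more in a group. Intervals of fold changes include the spread between libraries, whereas the limits given for counts of 0 cover counting error only.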

Additional observations from a re-analysis of the deposited data

How the results depend on the processing

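Of 72 member results, 35 were called; 23 of these were called under every alternative run for them, 12 lost the call under at least 1, and none of the 35 reversed. Counts of members called that left the main range were as follows. DESeq2 gave 1 lower in GEMM MG against normal MG. Library totals alone gave 2 lower in GL261 BMDM against GL261 MG, 1 lower in GEMM MG against normal MG and 0 higher in GEMM BMDM against monocytes, and without a filter 0 were lower in that last comparison. Fitting only the groups compared gave 1 higher in GEMM BMDM against GEMM MG, 0 lower in GL261 BMDM against GL261 MG, 1 lower in GEMM MG against normal MG and 3 higher in GL261 BMDM against GEMM BMDM. Without tumour 80766 there were 0 lower in GL261 BMDM against GL261 MG and 3 higher in GL261 BMDM against GEMM BMDM; without tumour 80769 there were 0 lower in GL261 BMDM against GL261 MG. Without monocytes 64820 and 64821, 0 were higher in GEMM BMDM against monocytes. The replicate block gave 2 higher in GEMM BMDM against GEMM MG and 2 lower in GL261 BMDM against GL261 MG, and changed no other call. Leaving out 1 library gave 0 to 1 lower in GL261 BMDM against GL261 MG, 3 to 7 higher in GL261 BMDM against GEMM BMDM, 6 to 7 higher in GL261 MG against normal MG, 5 to 8 higher in GL261 MG against GEMM MG, 0 to 1 higher and 0 to 4 lower in GEMM BMDM against monocytes, and 3 higher and 0 to 1 lower in GEMM MG against normal MG. Signs changed only for uncalled values (log2). In GEMM BMDM against GEMM MG, Gbp5 was at -0.038 with DESeq2 and -0.037 with RLE factors. For the interaction, Gbp7 was at -0.0395 with limma-voom, -0.039 with the block, -0.23 with library totals and -0.16 without tumour 80766. With library totals, Gbp7 was at -0.014 in GL261 BMDM against GL261 MG, Irf1 at 0.18 in GL261 MG against normal MG, and Gbp2 and Gbp3 at -0.036 and -0.034 in GEMM BMDM against monocytes, where Gbp5 was at 0.021 without a filter and Gbp2 at -0.055 without monocytes 64820 and 64821. Without tumour 80769, Irf1 was at 0.25 in GL261 MG against normal MG and Gbp3 at 0.065 in GL261 BMDM against GL261 MG; without tumour 80766, Gbp9 was at -0.21 in GL261 BMDM against monocytes. Leaving out 1 library, values in GL261 BMDM against GL261 MG ran from -0.78 to 0.034 for Gbp2, -0.42 to 0.27 for Gbp3, -0.62 to 0.41 for Gbp5, -0.20 to 0.61 for Gbp7 and -0.0093 to 0.55 for Gbp9. For the interaction they ran from -0.64 to 0.39 for Gbp5, -0.43 to 0.39 for Gbp7, -0.47 to 0.093 for Gbp9 and -0.56 to 0.077 for Irf1. In GEMM BMDM against GEMM MG they ran from -0.026 to 0.42 for Gbp2, -0.32 to 0.29 for Gbp5, -0.36 to 0.023 for Irgm1 and -0.46 to 0.046 for Irf1. They ran from -0.21 to 0.35 for Gbp9 in GL261 BMDM against monocytes, -0.45 to 0.21 for Irf1 in GL261 MG against normal MG, -0.082 to 0.23 for Gbp2 and -0.42 to 0.080 for Gbp5 in GEMM BMDM against monocytes, and -0.017 to 0.45 for Gbp5 in GEMM MG against normal MG. Over all genes, calls for the interaction were 364 higher and 431 lower with DESeq2, 162 higher with limma-voom, 43 higher without a filter, and 7 and 16 when only its groups were fitted. Fitting only the groups compared called 567 higher and 210 lower in GL261 BMDM against GL261 MG and 1023 and 678 in GL261 BMDM against GEMM BMDM, and DESeq2 called 1753 lower in GL261 BMDM against GL261 MG. The cause of these changes was not tested.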
